A study of Bos taurus with 34 samples.

Results

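Heat shock proteins and co-chaperones were described in bovine liver as a set of 77 genes among the 14161 genes of the authors' comparison of SLICK with FREE animals. They were chosen by symbol, with earlier results of these data known. The set holds every HSPA, HSPB, HSPD, HSPE, HSPH, HSP90, DNAJ, BAG and HSF gene with a row in that comparison. CRYAB and HIKESHI were added by name. The call of CRYAB below is thus not that of a set chosen blind to these data. SLICK and FREE are 18 liver samples of the TruSeq experiment, all labelled Senepol, from cows sired by either of 2 slick bulls, Blanco or Lone Ranger. The 10 SLICK daughters carried 1 copy of the SLICK1 allele, 5 of them by each bull. The 8 FREE daughters carried 0 copies, 7 of them by Lone Ranger and 1 by Blanco. SLICK1 is an inherited change in PRLR, the prolactin receptor gene, and is known for a short coat and a lower body temperature in the heat. It is carried in every cell, and genotype is partly confounded with sire. The series has 16 further liver samples, 11 from animals with 2 copies (S2) and 5 from animals with 1 copy (S1), prepared with the SMARTer kit; these were not analysed here.

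No library column could be tied to a labelled animal, so no value per animal is given and every comparison rests on the authors' deposited table. A log2 fold change is that of SLICK against FREE, so a positive value means higher in SLICK, as read from the name of the table. The average level of a gene is its mean log2 CPM, where CPM is counts scaled to library size, over the libraries of the comparison. A gene is said to have changed where its adjusted p there was under 0.05. Standard errors (SE) and 95% intervals are approximate and were worked back from the authors' log2 fold change, F statistic and p-value. Over all genes the median log2 fold change was -0.01, and 51.8% of them were below 0 (authors' deposited table). Albumin (ALB), the defining hepatocyte product, had the highest average of all genes there, 15.87 log2 CPM. The skeletal muscle markers MYH1, MYH2, MYH7, ACTA1, CKM, MYL1, MB and TTN had no row in it.

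Molecular chaperones bind unfolded protein chains and help them fold or pass them on for degradation. HSP70 proteins do so in cycles of ATP hydrolysis that J-domain proteins (DNAJ) start. Nucleotide exchange factors, such as several BAG proteins and HSPH1, end each cycle, while HSP90 acts on clients later in folding. Small heat shock proteins hold unfolded proteins without ATP, and HSF1 is the transcription factor that induces many of these genes in heat. The roles given here are those known in human and mouse.

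CRYAB, or alpha B-crystallin, a small heat shock protein that is abundant in lens and muscle, was the 1 member of the 77 that changed, and it was lower in SLICK. By the authors' deposited table it was 4.72-fold lower (log2 fold change -2.24, adjusted p = 0.0210), with an approximate 95% interval of 2.80-fold to 7.97-fold lower. Among all 14161 genes, 0.501% changed in either direction and 0.41% were called lower, so 1 of 77 (1.3%) is a count of a single gene. The counts of 0 given below for families and lists are to be read beside the same 0.501%. CRYAB had the second smallest p of all genes and stood at rank 26 among them by lowest log2 fold change, while 4 of the 3793 genes averaging 5 log2 CPM or more had a lower log2 fold change.

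The distance between CRYAB and the other members was large. The next lowest log2 fold change was that of DNAJA4, at -0.98, a gap of 1.26 log2 units, and the one after was 0.53 units further up. The other 75 members all lay within 0.5 log2 units of 0. A log2 fold change of at least 0.5 in size was thus found in 2 of 77 members (2.6%), against 7.93% of all genes. At an adjusted p under 0.10, the members called were CRYAB and DNAJA4 (2.6%, against 2.77% of all genes). With an unadjusted p under 0.05 there were 11 members (14.3%), against 16% of all genes. Of these, 5 were higher in SLICK (6.49%, against 7.22% of all genes) and 6 were lower (7.79%, against 8.79%). Both shares were near the background. The median over the 77 members was -0.03, and -0.05 where the median of genes of similar average, in 20 bins of equal size, was first taken off each gene. The highest bin runs up to the 15.87 log2 CPM of ALB, so its genes are less alike in average. Before that centring, 67 of them (87.0%) lay within 0.25 log2 units of 0, as did 76.6% of all genes.

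**Figure D1:**
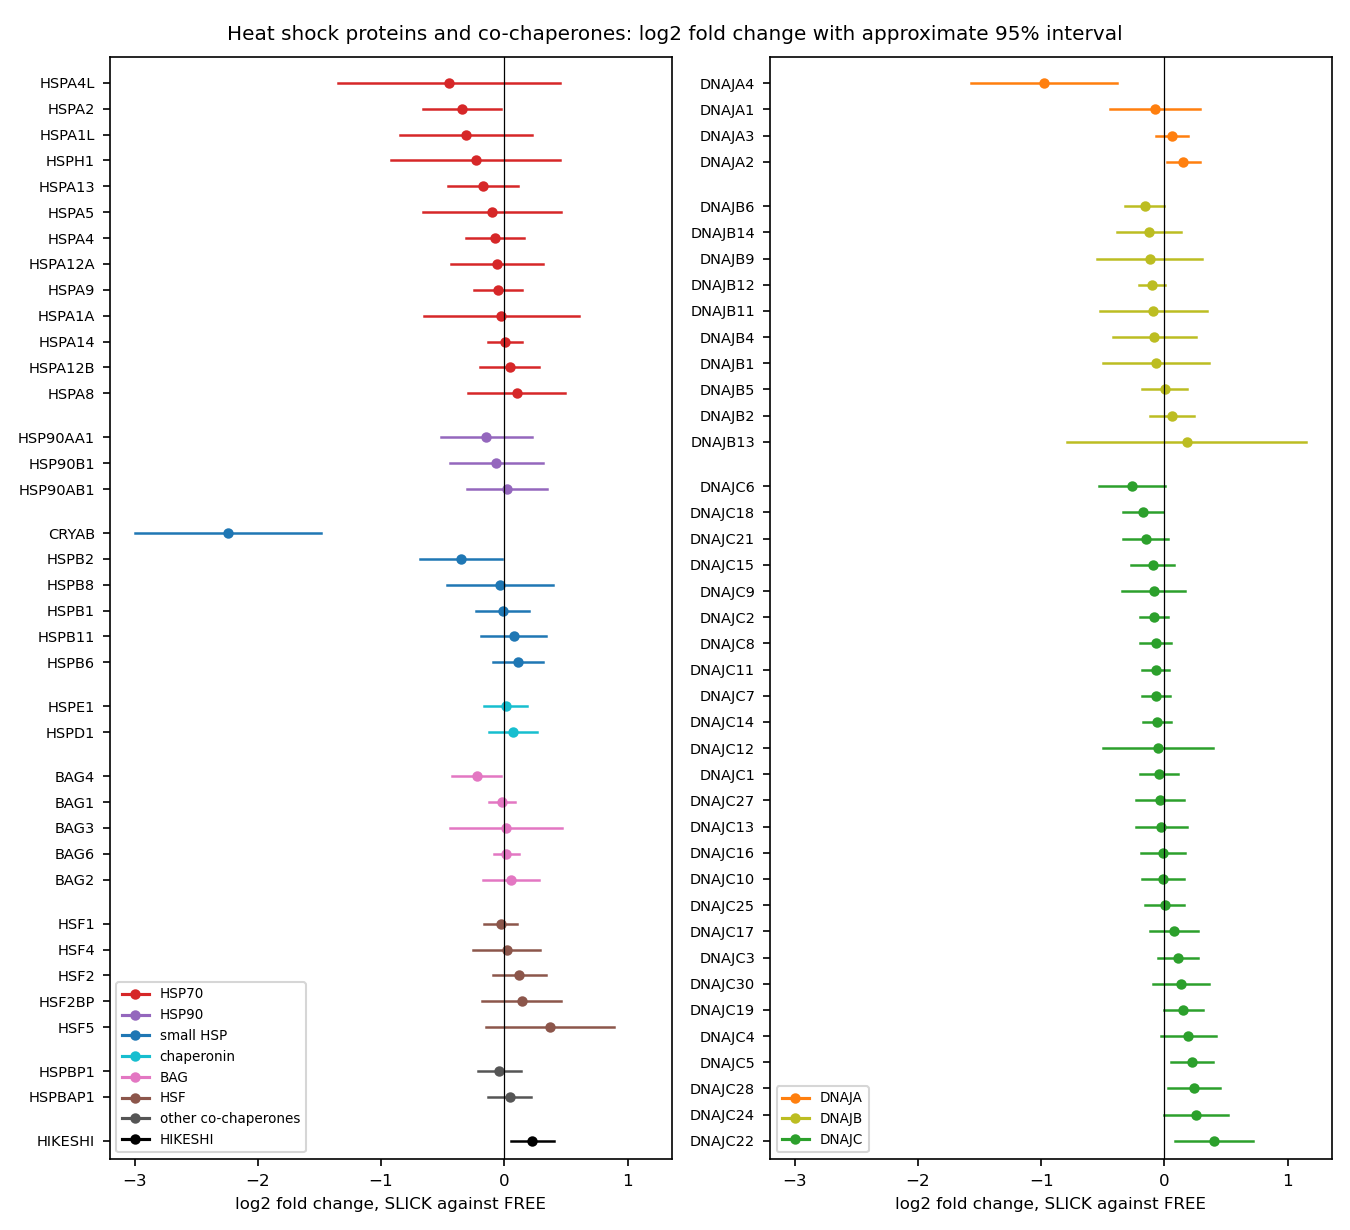
Log2 fold change of SLICK against FREE for each of the 77 members, ordered within families; points are the authors' deposited values and lines are approximate 95% intervals. CRYAB lies at -2.24, DNAJA4 at -0.98, and the others between -0.45 and 0.40.

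The small heat shock proteins had 6 members in the table, and CRYAB was the one that changed. HSPB2, whose gene lies next to CRYAB, was at -0.35 by the authors' deposited table (unadjusted p = 0.0391, adjusted p = 0.290). HSPB1 (HSP27), which binds unfolded proteins in large oligomers, had a log2 fold change of -0.01 (approximate 95% interval -0.23 to 0.20) in that table. HSPB8, which works with BAG3 in chaperone-assisted autophagy, was at -0.04 (-0.47 to 0.39), and HSPB6 was at 0.11 (-0.09 to 0.32) by the authors' deposited table. HSPB11, named as a heat shock protein but known as a component of the ciliary transport machinery, was at 0.07 (-0.19 to 0.34). None of the intervals of these 5 genes reached the bound of CRYAB nearest 0, -1.48. The median of the family was -0.03 with CRYAB and -0.01 over the 5 members without it. With CRYAB it was -0.12 after centring on genes of similar average.

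Per kilobase of transcript model, HSPB1 stood first of all 77 members with an average level of 8.52 log2 CPM per kb, and CRYAB stood at rank 13 with 5.49. HSPB8 was next to CRYAB at 5.46. HSPB6, HSPB11 and HSPB2 were lower, at 3.29, 2.43 and 0.29 log2 CPM per kb. CRYAB and HSPB8 thus had nearly the same average level per kilobase over the libraries. Without allowance for length they averaged 5.98 and 6.39 log2 CPM. Their log2 fold changes were -2.24 and -0.04 by the authors' deposited table.

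CRYAB (ENSBTAG00000000434) lies on chromosome 15 of ARS-UCD1.2 from 22242326 to 22246349 on the minus strand, and HSPB2 (ENSBTAG00000000440) from 22246337 to 22248004 on the plus strand. The genes point away from each other, their 5′ ends are 12 bases apart in the annotation, and they overlap by 13 bases. On the log2 CPM scale, which does not allow for length, CRYAB averaged 5.98 and HSPB2 averaged 0.52. Whether reads of the TruSeq libraries were counted by strand is not stated, so reads in the overlap may be shared.

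Of 28 further annotated genes within 500 kb of CRYAB, 18 had a row by the authors' deposited table, and 0 of them changed. With an unadjusted p under 0.05 there were 7 (38.9%, against 16% of all genes), of which 3 were lower and 4 higher in SLICK. Besides HSPB2, the lower ones were C15H11orf52 (log2 fold change -0.29 by the authors' deposited table), whose 5′ end lies 4.92 kb from that of CRYAB, and NKAPD1 (-0.20). The higher ones were C15H11orf1 (0.47), the complex II subunit SDHD (0.20), the carotenoid-cleaving enzyme BCO2 (0.63) and TEX12 (1.26), a protein of the meiotic synaptonemal complex, by the authors' deposited table. TEX12 came nearest to the threshold, with an adjusted p of 0.0574. The median of the 18 neighbours was 0.00, with 9 of them lower.

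**Figure D2:**
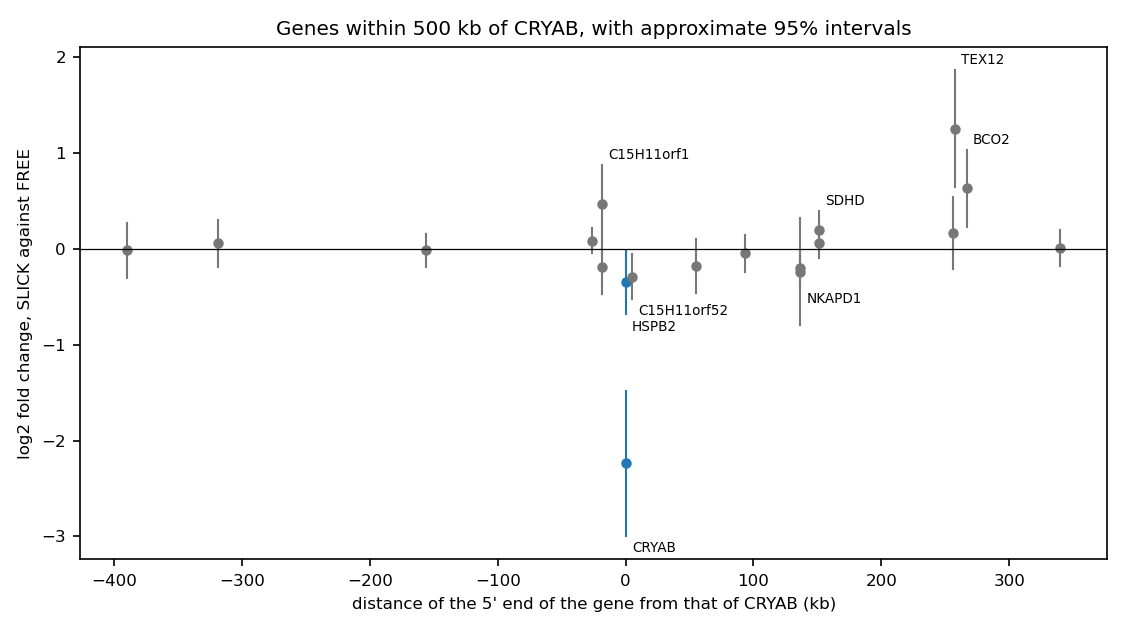
Log2 fold change of SLICK against FREE, with approximate 95% intervals, against the distance in kb between the 5′ end of each gene within 500 kb and that of CRYAB; CRYAB and HSPB2 are blue. CRYAB lies at -2.24, the 18 neighbours between -0.35 and 1.26.

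CRYAB is known to be made in several cell types, so markers of hepatocytes and of other cells were set beside it. Which liver cells made it was not measured here. Cholangiocyte markers, which mark the bile duct lining, were all below 0 by the authors' deposited table (10 of 10 measured of 11 listed, median log2 fold change -0.56). With an unadjusted p under 0.05 there were 6 of them (60%, against 8.79% of all genes lower) and by the adjusted p 0. CLDN4 was at -1.67, SPP1 at -2.44 and KRT7 at -1.03 in that table, while KRT19 (-0.03) and MMP7 (-0.08) lay near 0. Over all genes 16% had an unadjusted p under 0.05, the share to set beside the counts of the lists that follow. Stellate cell and fibroblast markers had a median of -0.13, with 7 of 11 below 0 and 2 with an unadjusted p under 0.05, namely LUM (-0.54) and COL1A2 (-0.38) by the authors' deposited table. The 6 smooth muscle markers had a median of -0.04 and 0 with an unadjusted p under 0.05. Medians were 0.20 over 12 hepatocyte markers, 0.12 over 7 endothelial, 0.09 over 6 macrophage and 0.04 over 6 T and NK cell markers. Of the hepatocyte markers, 8 were above 0 and 4 below, with HP lowest at -0.94 (unadjusted p = 0.301). An unadjusted p under 0.05 was found for 3 (25%, against 7.22% of all genes higher). These were CPS1 (0.49), TF (0.40) and ALB (0.38), all higher in SLICK by the authors' deposited table. STAB1 (0.29) was the 1 endothelial marker at an unadjusted p under 0.05. CD68 (-0.28) was the 1 macrophage marker at that threshold, with 0 among T and NK cell markers. The 3 adipocyte markers had a median of -0.12 and 0 with an unadjusted p under 0.05. The 3 erythroid markers had a median of 0.25 but lay on both sides of 0, with HBA at -1.17 (unadjusted p = 0.0119) and HBB at 0.65 (unadjusted p = 0.0636) by the authors' deposited table. TNNT3, the 1 skeletal muscle marker with a row, was at -0.24. None of the markers of these lists changed. In whole liver, fewer cells of a type and less RNA per cell cannot be told apart, and the part of these cells in the CRYAB difference was not tested.

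HSP70 genes, 13 with HSPH1, included 0 that changed. Their median log2 fold change was -0.07, and -0.18 after centring on genes of similar average, a loose match for members in the highest bin. Before centring, 10 of the 13 (76.9%) were below 0, against 51.8% of all genes. HSPA8, the constitutive cytosolic HSP70, was at 0.10 (approximate 95% interval -0.30 to 0.49) by the authors' deposited table. HSPA1A, the heat-inducible form, was at -0.03 (-0.66 to 0.61). Their average levels were 8.46 log2 CPM per kb for HSPA8 and 7.40 for HSPA1A, the second and the sixth of the 77. HSPA1A is known to have near-identical copies in mammals, and its value is uncertain as far as reads were shared between copies, which was not tested. Neither gene differed beyond its error, and the interval of HSPA1A holds differences from -0.66 to 0.61 log2 units.

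HSPA5 (BiP), the HSP70 of the endoplasmic reticulum, had a log2 fold change of -0.10 (-0.66 to 0.46) and HSPA9 (mortalin), that of mitochondria, of -0.05 (-0.24 to 0.15) by the authors' deposited table. HSPH1 (HSP110) and HSPA4, which act as exchange factors for HSP70, were at -0.23 (-0.92 to 0.45) and -0.07 (-0.31 to 0.16). HSPA2, known best from testis, was the HSP70 gene with the smallest p (log2 fold change -0.34, unadjusted p = 0.0347, adjusted p = 0.276 by the authors' deposited table). HSPA13 was at -0.17 and HSPA1L at -0.31, with unadjusted p of 0.221 and 0.243. The lowest HSP70 value was that of HSPA4L, -0.45, but this gene averaged -1.34 log2 CPM and its interval was wide (-1.35 to 0.45). HSPA14, HSPA12A and HSPA12B lay between -0.06 and 0.04.

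HSPA1A and HSPA1L also form a divergent pair, on chromosome 23, with 434 bases between them. HSPA1A is heat-inducible, while HSPA1L is known as a testis form. Here they averaged 7.40 and -1.20 log2 CPM per kb, and their log2 fold changes were -0.03 and -0.31 by the authors' deposited table.

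HSP90 had 3 genes in the table, and 0 of them changed. HSP90AA1, the inducible cytosolic form, had a log2 fold change of -0.15 (-0.52 to 0.22) by the authors' deposited table. HSP90AB1, the constitutive cytosolic form, was at 0.02 (-0.30 to 0.34), and HSP90B1 (GRP94), the form of the endoplasmic reticulum, at -0.07 (-0.44 to 0.31). Their average levels were 6.51, 7.53 and 8.15 log2 CPM per kb. The smallest unadjusted p of the family was 0.419. Its median was -0.07, and -0.22 after centring on genes of similar average. Reads of HSP90AA1 and HSP90AB1 may be shared where their sequences match.

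The mitochondrial chaperonin HSPD1 (HSP60) and its lid HSPE1 (HSP10) are a divergent pair on chromosome 2 whose annotations overlap by 959 bases. HSPD1 was at 0.07 (-0.13 to 0.27) and HSPE1 at 0.01 (-0.16 to 0.18) by the authors' deposited table. Unlike CRYAB and HSPB2, they had similar average levels, 7.54 and 7.29 log2 CPM.

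**Figure D3:**
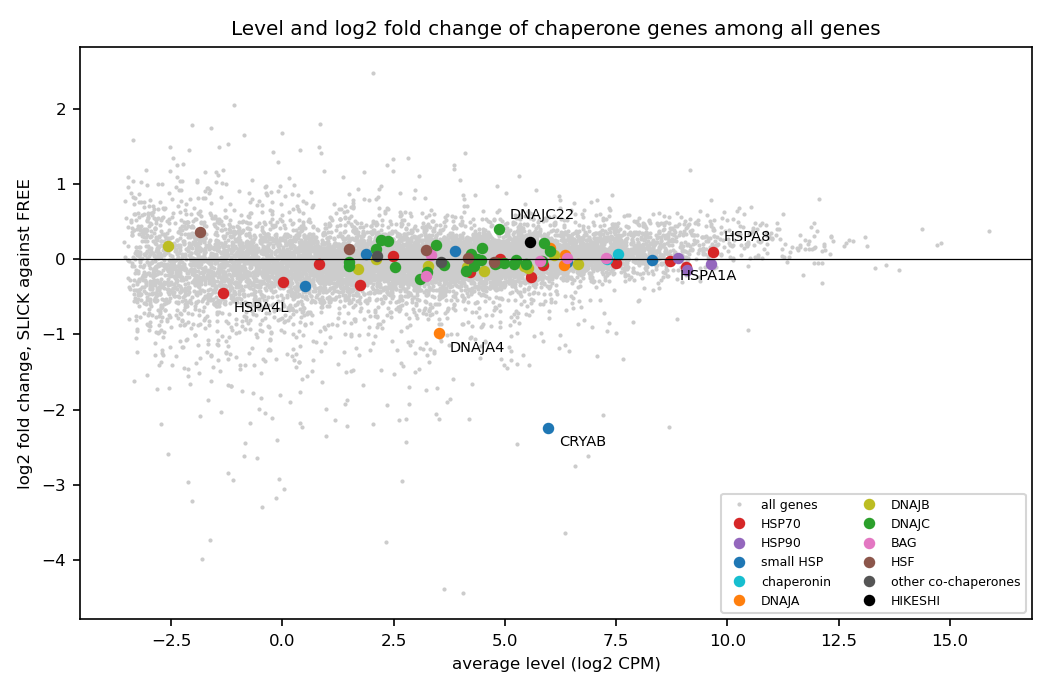
Log2 fold change of SLICK against FREE against average level (log2 CPM) for all 14161 genes (grey) and the 77 members (coloured by family). CRYAB, averaging 5.98 log2 CPM, lies at -2.24, while the most abundant members, among them HSPA8 at 0.10, lie near 0.

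J-domain proteins, the co-chaperones that bring clients to HSP70 and start its ATP cycle, had 40 members in the table and 0 that changed. Their median log2 fold change was -0.05, with 25 below 0 (62.5%, against 51.8% of all genes) and 15 above. The 4 DNAJA genes lay on both sides of 0. DNAJA4, a cytosolic DNAJA protein, was at -0.98 (-1.57 to -0.39; unadjusted p = 0.00262, adjusted p = 0.0997 by the authors' deposited table). It had the second smallest p of the 77 members. The interval of DNAJA4 overlapped that of CRYAB (-2.99 to -1.48), and the difference between these genes was not tested. DNAJA2 was on the other side of 0, at 0.15 (0.02 to 0.28; unadjusted p = 0.0223, adjusted p = 0.225 by the authors' deposited table). DNAJA1 was at -0.08 (-0.45 to 0.29) and DNAJA3 (TID1), the mitochondrial DNAJA protein, at 0.06 (-0.06 to 0.19).

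The 10 DNAJB genes had a median of -0.09, and 7 were below 0 (70%, against 51.8% of all genes). None had an unadjusted p under 0.05. DNAJB1 (HSP40), the heat-inducible partner of HSPA1A, was at -0.07 (-0.50 to 0.36) by the authors' deposited table. DNAJB6, which holds back aggregation of polyglutamine proteins, was at -0.16 (unadjusted p = 0.0502) and DNAJB12, of the endoplasmic reticulum membrane, at -0.10 (unadjusted p = 0.0582). DNAJB14 and DNAJB2 were at -0.13 and 0.06 by the authors' deposited table. DNAJB4, DNAJB5, DNAJB9 and DNAJB11 lay between -0.12 and 0.00. DNAJB13 was at 0.18 with an average of only -2.56 log2 CPM (-0.79 to 1.15).

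The 26 DNAJC genes, which share the J domain and little else, had a median of -0.03 and ranged from -0.27 for DNAJC6 to 0.40 for DNAJC22. DNAJC22 had the highest log2 fold change of all 77 members (0.09 to 0.72; unadjusted p = 0.0148, adjusted p = 0.190 by the authors' deposited table). DNAJC5 (cysteine string protein), which works in vesicle secretion, had the smallest p of the family, at 0.22 (0.05 to 0.40; unadjusted p = 0.0144, adjusted p = 0.189). DNAJC28 was at 0.24 (unadjusted p = 0.0264) and DNAJC18 at -0.18 (unadjusted p = 0.0340) by the authors' deposited table. DNAJC6 (auxilin), which strips clathrin from vesicles, was at -0.27 (unadjusted p = 0.0513). DNAJC3 (p58IPK), a co-chaperone of BiP, was at 0.11, and the others ranged from -0.15 (DNAJC21) to 0.26 (DNAJC24). At an unadjusted p under 0.05, 3 of the 26 were higher in SLICK (11.5%, against 7.22% of all genes) and 1 was lower (3.85%, against 8.79%).

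DNAJC21, a ribosome biogenesis factor, is the member on the chromosome of PRLR. It lies on chromosome 20 from 39183189 to 39214779, 82.6 kb from the end of PRLR, which spans 38971752 to 39100563. Its log2 fold change was -0.15 (-0.34 to 0.03) by the authors' deposited table, with an unadjusted p of 0.102.

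The 5 BAG genes had a median of 0.01, which was -0.03 after centring on genes of similar average. BAG4 was at -0.22 (-0.42 to -0.02; unadjusted p = 0.0298, adjusted p = 0.257 by the authors' deposited table). BAG3, which directs clients to autophagy and is induced by heat, was at 0.01 (-0.44 to 0.47). BAG1, BAG2 and BAG6, the last a chaperone of tail-anchored proteins, were at -0.02, 0.06 and 0.01. HSPBP1, a further exchange factor of HSP70, was at -0.04 (-0.22 to 0.14), and HSPBAP1, which binds HSPB1, at 0.05 (-0.13 to 0.22) by the authors' deposited table.

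The heat shock transcription factors did not pass the test. HSF1 was at -0.03 (-0.17 to 0.11) and HSF2 at 0.12 (-0.10 to 0.34) by the authors' deposited table. HSF4, known for its role in the lens, was at 0.02 (-0.25 to 0.29). HSF5, which averaged -1.85 log2 CPM, was at 0.37 (-0.15 to 0.89), and HSF2BP, a meiotic recombination protein that binds HSF2, at 0.14 (-0.18 to 0.46). HIKESHI, which carries HSP70 into the nucleus in heat, had the third smallest p of the 77 members. It was at 0.23 (0.05 to 0.40; unadjusted p = 0.0139, adjusted p = 0.187 by the authors' deposited table).

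Members were also listed by compartment. A list of 10 members of the endoplasmic reticulum had a median of -0.05 with 8 below 0, and a list of 10 of mitochondria had a median of 0.07 with 3 below 0. Of all genes, 51.8% were below 0. The lists do not hold every member known in these compartments, and DNAJB12 is not on the first. Values of the first list ran from -0.17 (HSPA13) to 0.11 (DNAJC3), those of the second from -0.10 (DNAJC15) to 0.24 (DNAJC28) by the authors' deposited table. DNAJC28 was the 1 gene of these 20 with an unadjusted p under 0.05. Whether the compartments differ was not tested.

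The error of the comparison differed widely between members. The approximate SE of the log2 fold change ran from 0.048 to 0.464, with a median of 0.104 against 0.117 over all genes. Each SE was ranked among genes of similar average, in the same 20 bins. At or above percentile 90 stood 12 of the 77 members (15.6%, where 10% of all genes lie by construction), and at or under percentile 10 also 12. The high ones were CRYAB, HSPH1, HSPA1A, DNAJA4, HSPA5, BAG3, DNAJC12, DNAJB11, HSPB8, DNAJB1, DNAJB9 and DNAJA1. The low ones included BAG6 (0.048), DNAJB12 (0.050), BAG1 (0.051) and DNAJC11 (0.052). The difference of HSPA1A, with an SE of 0.301 at an average of 8.70 log2 CPM, was therefore less certain than that of BAG6 at 7.28 log2 CPM. Such an SE takes in the spread between animals as well as the error of measurement, and these could not be told apart here. CRYAB had an SE of 0.360, the highest of the members averaging at least 0 log2 CPM, and its log2 fold change was 6.22 times that SE in size.

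**Figure D4:**
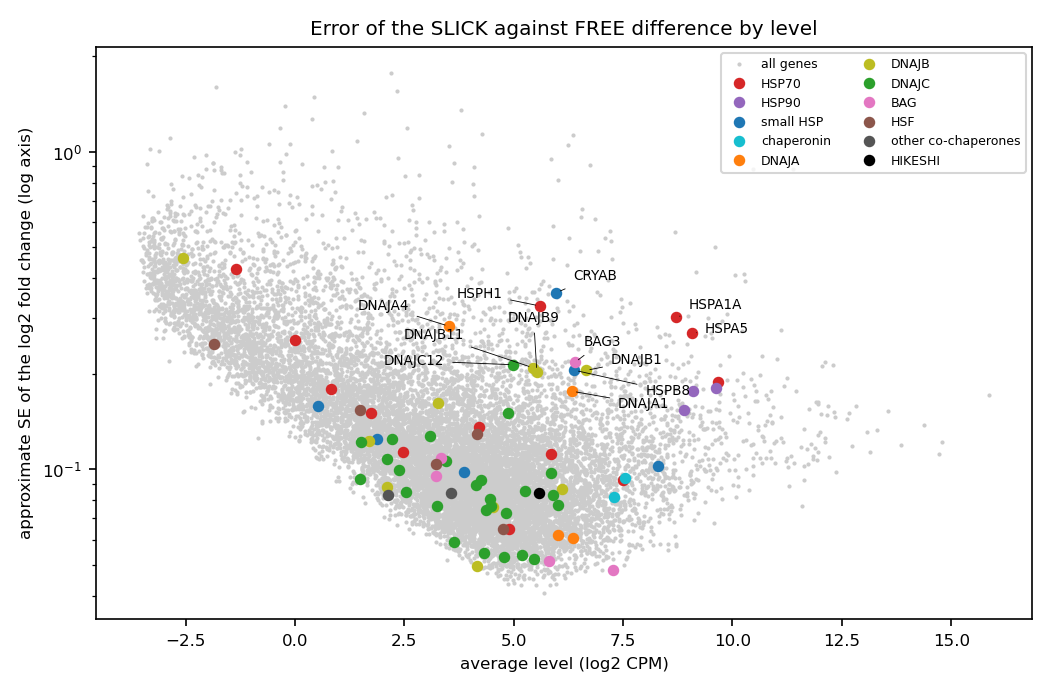
Approximate SE of the log2 fold change (log axis) against average level (log2 CPM) for all genes (grey) and the 77 members (coloured by family); labelled members are at or above percentile 90 among genes of similar level. HSPA1A and HSPA5 lie at 0.301 and 0.268, BAG6 at 0.048.

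Other chaperone genes, a list of 50 that holds the chaperonin CCT and prefoldin subunits and co-chaperones of HSP90, included 0 that rose and 0 that fell. As 0.501% of all genes changed, a count of 0 in 50 is near that share. Of the list, 2 genes are also members. The other 48 had a median log2 fold change of -0.05, against -0.01 over all genes. Below 0 lay 32 of them (66.7%), against 51.8% of all genes. SERPINH1 (HSP47), the collagen chaperone of the endoplasmic reticulum, was the 1 gene with an unadjusted p under 0.05 (log2 fold change -0.25, p = 0.0236, adjusted p = 0.232 by the authors' deposited table). This is 2.08% of the 48, against 16% of all genes. The HSP90 immunophilin FKBP4 was at 0.19 (unadjusted p = 0.0741) in that table. The highest value was that of FKBP5, an immunophilin that glucocorticoids induce, at 0.54.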

How the data were processed

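TruSeq or SMARTer libraries were made from liver RNA, per the labels' protocols. The build ARS-UCD1.2 and the tools HISAT2 2.1.0, Subread, featureCounts and edgeR are named in the submitters' processing notes, without role or order. The authors deposited 5 values per gene for SLICK against FREE in TruSeq libraries, per the file headers. The deposited columns are a log2 fold change and the mean log2 CPM. They also hold an F score, which the authors deposited with its p-value and with that p after adjustment. Whether the model held sire is not stated. Which libraries entered that comparison could not be checked against the labels.

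The tables hold 70 library columns in 4 tables, named by numbers or short codes that no label holds, so none was used, and depth per sample is not given. Planned fits of the counts, S2 against S1 included, could not be made for this reason, and a planned promoter search had no sequences. Of 14246 rows, 85 repeat a gene under a further symbol, and 14161 genes were kept. The rule matched 86 annotated gene names, of which 77 have a row. DNAJB3, DNAJB7, DNAJB8, DNAJC5B, DNAJC5G, HSPA6, HSPB3, HSPB7 and HSPB9 have none, and the filter that left them out is not stated. Of the 77, 74 averaged at least 0 log2 CPM.

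The SE was the size of the log2 fold change over the square root of F. Intervals used 18.7 denominator degrees of freedom, which F and p imply alike in 468 genes examined. They are approximate because the authors' fold change and F come from separate steps of a fit. Lengths and positions of genes were taken from the annotation columns of the SMARTer counts (Ensembl release 100, featureCounts 1.6.2, per the file headers). Members and lists were chosen with earlier results of these data known. Named were all members of families of up to 6. In larger families, the 4 with the smallest p and the 2 with the highest average were named, with every member at an unadjusted p under 0.05 and the extremes. Alternatives were another adjustment of p, thresholds, level filters and centring. Python 3.11.15, numpy 2.4.6, pandas 2.3.3, scipy 1.17.1 and matplotlib 3.10.9 were used.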

Additional observations from a re-analysis of the deposited data

How the results depend on the processing

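CRYAB was the 1 member called in the deposited adjusted p, in a Benjamini-Hochberg adjustment of the deposited p-values over the genes kept, and with genes averaging under 0 or under 3 log2 CPM left out. At an adjusted p under 0.10 there were 2 members, 0 of the other chaperone genes and 1 neighbour of CRYAB, and at an unadjusted p under 0.05 there were 11, 1 and 7. The log2 fold change of CRYAB was -2.23 after centring on all genes and -2.28 after centring on genes of similar average. Over 42 settings for family medians, 2 medians changed sign, both after centring on genes of similar average. These were the chaperonin median, at -0.059 against 0.041, and the BAG median, at -0.035 against 0.014. The largest shift was 0.15, for HSP90 under the same centring (to -0.22), and the median of all members stayed between -0.05 and -0.02. No paired analysis was possible because no library column could be tied to a sample. Leaving out single animals, another count test and any fit with sire as a covariate were not run for the same reason, so how far 1 animal carries a value is not known here.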
